A study of Mus musculus with 10 samples.

Results

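The sites described here were weak Myf5 peaks without a MyoD peak that overlapped acetylated chromatin. They were rows of the Myf5 peak list with a maximum read coverage under 80 that overlapped no MyoD peak. Each shared at least 1 bp with a peak of histone H4 acetylation (H4Ac) in at least 1 of 3 cell populations. There were 5303 of them among 93787 Myf5 peaks. The 42839 weak Myf5-only peaks without H4Ac served for comparison. Myf5 coverage, the absence of MyoD and the presence of H4Ac chose the sites, so those values are given as a description.

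All cells were mouse embryonic fibroblasts with the genotype MyoD-/-; Myf5-/-, infected with a lentivirus that carried MyoD, Myf5 or green fluorescent protein (GFP). Differentiation medium was given 24 h after the virus, and cells were collected 20 h later. Binding was mapped by chromatin immunoprecipitation and sequencing, MyoD in cells given MyoD and Myf5 in cells given Myf5, and each of these lists covered 2 replicates together, in chromatin fixed for 11 min. H4Ac was mapped in native chromatin (micrococcal nuclease, 15 units, 18 min) of cells with GFP, MyoD or Myf5, with 1 list each, and the same factor antibodies were used on cells with GFP as mock controls. The factors were supplied by virus to cells that lacked both genes, which limits the cells as a model of native muscle precursors, and peak lists hold no expression values against which the cell type could be checked. Since each group had 1 list, there is no replicate error and no test between conditions. Brackets hold 95% counting intervals (exact binomial for shares, order statistics for medians), and neighbouring peaks are not independent. Sequencing depth per library is unknown from these files.

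Myf5 and MyoD are basic helix-loop-helix transcription factors that bind short E-box sequences and steer cells to the skeletal muscle lineage. Acetylation of histone H4 weakens contacts between nucleosomes and is found at active promoters and enhancers. Sites are named by position in the mouse build mm9, because no sequence or gene annotation of that build was used here.

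Weak Myf5-only sites were acetylated less often than Myf5 sites in general. Of 48142 weak Myf5-only peaks, 11.0% (10.7 to 11.3) overlapped an H4Ac peak of any list, whereas 16.5% of all Myf5 peaks did. The share was 18.2% (17.6 to 18.9) for 13640 weak Myf5 peaks that had a MyoD peak and 25.3% (24.8 to 25.8) for 29410 strong ones that had one. Strong Myf5-only peaks, with a coverage of 80 or more, stood lowest: 204 of 2595 overlapped H4Ac, or 7.86% (6.85 to 8.96).

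Among Myf5-only peaks, H4Ac became slightly more frequent with Myf5 coverage up to 40 to 49 and not beyond. The share with H4Ac was 9.04% (8.20 to 9.93) at a coverage of 28 to 29, 10.4% (9.84 to 10.9) at 30 to 34 and 11.1% (10.4 to 11.7) at 35 to 39. It was 11.9% (11.3 to 12.5) at 40 to 49 and 10.3% (8.97 to 11.8) at 70 to 79. It was 8.57% (7.28 to 9.99) at 80 to 99 and 7.04% (5.36 to 9.05) at 100 to 149, outside the limit of weak peaks, and above that 1 of 71 peaks at 150 to 199 and 0 of 13 from 200 upward had H4Ac, for which the exact upper limit is 24.7%. For Myf5 peaks with a MyoD peak the share was 12.0% (7.40 to 18.1) at 28 to 29 and 18.1% (16.6 to 19.6) at 40 to 49. Beyond these classes it rose while that of Myf5-only peaks fell, with 20.3% (18.9 to 21.8) at 70 to 79 and 21.4% (20.6 to 22.3) at 100 to 149. It was 22.3% (21.1 to 23.5) at 150 to 199 and 32.5% (31.6 to 33.4) from 200 upward. Just inside the limit, at a coverage of 75 to 79, 79 of 794 Myf5-only peaks had H4Ac, and just outside it, at 80 to 84, 45 of 606 did. Seen from the other side, Myf5 peaks with H4Ac more often had a MyoD peak at the same Myf5 coverage. At a coverage of 40 to 49 this was 25.2% (23.2 to 27.3) against 17.1% (16.4 to 17.8) of Myf5 peaks without H4Ac, and at 70 to 79 it was 76.3% (73.2 to 79.2) against 59.2% (57.7 to 60.7). The rule for Myf5-only sites therefore left out a larger part of the acetylated Myf5 peaks than of the others.

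**Figure D1:**
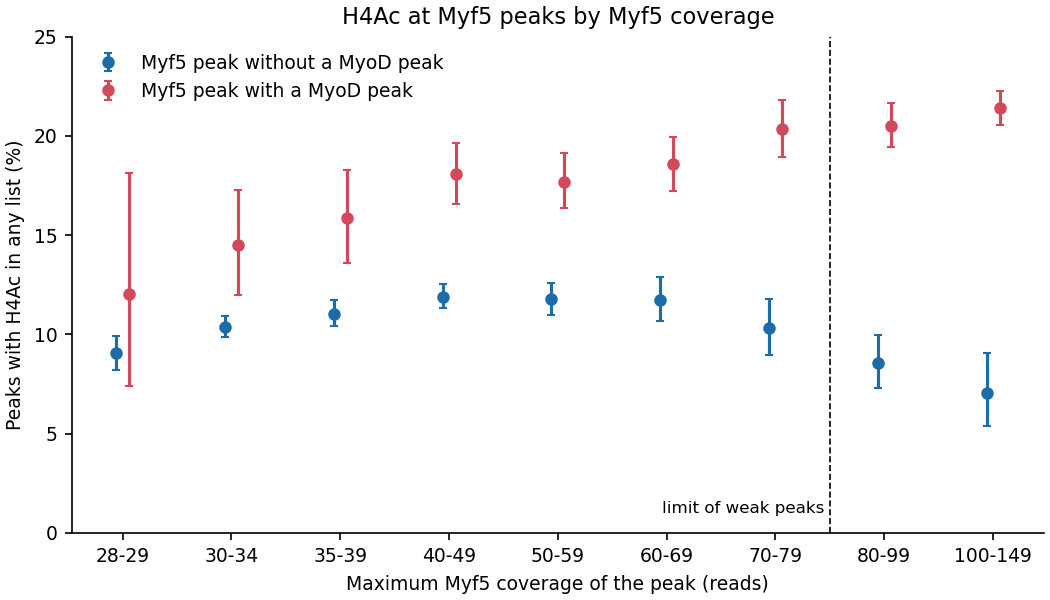
Share of Myf5 peaks (%) that overlapped an H4Ac peak of any list, by maximum Myf5 coverage in reads, for peaks without (blue) and with (red) a MyoD peak; bars are exact 95% binomial intervals, and peaks with a coverage of 150 or more are not drawn. Blue points stay between 7.04% and 11.9%, while red points go from 12.0% to 21.4%.

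The 3 H4Ac lists touched weak Myf5-only peaks equally often. A peak of the GFP list lay at 4015 of them, or 8.34% (8.09 to 8.59), a peak of the MyoD list at 4010, or 8.33% (8.08 to 8.58), and a peak of the Myf5 list at 4045, or 8.40% (8.16 to 8.65). The paired difference between the Myf5 and GFP lists was 0.0623 percentage points (-0.111 to 0.235), and that between the MyoD and GFP lists was -0.0104 points (-0.170 to 0.1496). For all Myf5 peaks the 3 shares were 11.6%, 13.6% and 11.9%. At strong shared peaks the MyoD list stood apart, with 16.2% (15.8 to 16.7) in cells with GFP, 22.3% (21.8 to 22.8) with MyoD and 17.4% (17.0 to 17.8) with Myf5. The near equality depends on the lists as called: with each held to its 31120 strongest peaks, the MyoD minus GFP difference was -0.798 points (-0.947 to -0.645), and with H4Ac peaks of at least 1.5 times their cutoff the Myf5 minus GFP difference was -0.154 points (-0.291 to -0.0153).

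Acetylated weak Myf5-only sites were less often of low GC content than the other weak Myf5-only sites. In the authors' bin of at most 40% GC lay 9.18% (8.42 to 9.99) of them and 14.0% (13.7 to 14.4) of the peaks without H4Ac. In the bin of 45 to 50% GC these shares were 41.9% (40.6 to 43.3) and 34.2% (33.8 to 34.7), and over 55% GC they were 2.21% (1.83 to 2.64) and 1.53% (1.41 to 1.65). Seen the other way, the share of weak Myf5-only peaks with H4Ac was 7.50% (6.87 to 8.17) in the lowest bin, 9.54% (9.11 to 9.97) in the next, 13.2% (12.7 to 13.7) at 45 to 50%, 12.8% (11.9 to 13.7) at 50 to 55% and 15.2% (12.7 to 17.9) in the highest. Low-GC peaks were also narrower, and with the peaks without H4Ac weighted to the same 5 width classes the gap in the lowest bin shrank from -4.83 (-5.67 to -3.96) to -1.55 percentage points. Within the narrowest class the share with H4Ac was 3.69% (2.93 to 4.58) in the lowest bin and 6.57% (5.67 to 7.56) at 45 to 50% GC, and within the broadest it was 19.0% (15.6 to 22.7) and 23.3% (22.0 to 24.7). In the classes between, from narrow to broad, the lowest bin stood at 6.47%, 8.46% and 10.8%, against 8.36%, 10.8% and 13.1% at 45 to 50% GC. At 40 to 45% GC these shares were 6.22%, 7.85% and 11.3%, so the lowest bin was not always below the next one.

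The order of the 3 lists turned over with GC content. In the bin of at most 40% GC, H4Ac lay at 4.30% (3.82 to 4.82) of weak Myf5-only peaks in cells with GFP, 4.59% (4.09 to 5.13) with MyoD and 5.88% (5.32 to 6.48) with Myf5. Between 50 and 55% GC the shares were 10.3% (9.48 to 11.1), 9.75% (8.99 to 10.5) and 8.82% (8.10 to 9.58), and over 55% GC they were 13.1% (10.8 to 15.7), 11.3% (9.13 to 13.7) and 9.59% (7.60 to 11.9). The Myf5 list was thus highest in the lowest bin and lowest in the 2 highest, where its interval overlaps that of the GFP list. It was also lowest at 45 to 50% GC, with 9.81% (9.36 to 10.3) against 10.5% (10.0 to 10.9) with GFP and 10.4% (9.94 to 10.9) with MyoD. The lists were scored on the same Myf5 peaks, so overlap of these single intervals does not measure their difference. Paired differences within a bin were not taken. The whole H4Ac lists differed in the lowest bin: 13.3% (12.9 to 13.7) of the GFP list, 13.1% (12.8 to 13.5) of the MyoD list and 19.2% (18.8 to 19.7) of the Myf5 list were of at most 40% GC. Whether that difference between whole lists accounts for the order at these sites was not tested.

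Acetylated sites were broader Myf5 peaks. Their median width was 793 bp (780 to 803; quartiles 603 and 1055), against 621 bp (619 to 623; quartiles 494 and 798) without H4Ac, a difference of 172 bp (159 to 182). The gap was present in each GC bin, from 642 bp (624 to 670) against 537 bp (531 to 542) in the lowest to 995 bp (878 to 1087) against 687 bp (659 to 715) in the highest. A broad peak can touch an H4Ac peak more easily, so the overlap was also scored in a window of 200 bp at the centre of each Myf5 peak. By full peak the share with H4Ac went from 4.98% (4.55 to 5.43) in the narrowest of 5 width classes to 21.7% (20.9 to 22.6) in the broadest, and by centre window from 4.10% (3.72 to 4.52) to 15.4% (14.7 to 16.1). With members chosen by the centre window, the difference in median width was 148 bp (134 to 162).

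**Figure D2:**
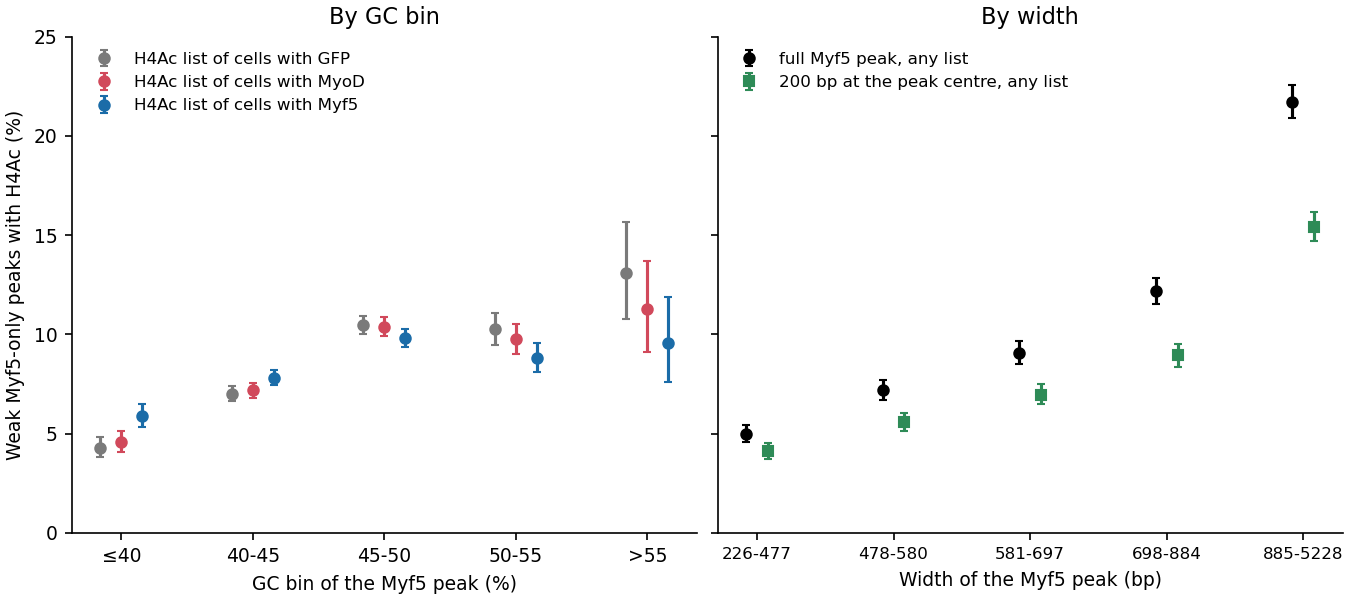
Share of weak Myf5-only peaks (%) with H4Ac, on the left by GC bin (%) for each of the 3 H4Ac lists and on the right by Myf5 peak width (bp) for any list, scored over the full peak (black) or in 200 bp at its centre (green); bars are exact 95% binomial intervals. On the left the blue points (cells with Myf5) lie above the grey ones (GFP) at low GC and below them at high GC, and on the right the share climbs from 4.98% to 21.7% over the full peak and from 4.10% to 15.4% at the centre.

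Width also separated weak from strong Myf5-only peaks in the direction opposite to their H4Ac. Strong Myf5-only peaks were broader, with a median of 813 bp (799 to 832) without and 1045.5 bp (973 to 1117) with H4Ac, yet had less of it. Among peaks 698 to 884 bp wide, 12.2% (11.5 to 12.9) of weak and 4.91% (3.48 to 6.70) of strong Myf5-only peaks had H4Ac, and from 885 bp upward 21.7% (20.9 to 22.6) and 12.1% (10.3 to 14.2). Weak peaks with a MyoD peak reached 17.3% (16.0 to 18.6) and 30.03% (28.7 to 31.4) in the same classes. Narrower strong Myf5-only peaks were few. In the narrowest class 4.98% (4.55 to 5.43) of weak and 4.92% (1.03 to 13.7) of 61 strong Myf5-only peaks had H4Ac. In the next class these shares were 7.19% (6.68 to 7.72) and 4.88% (2.36 to 8.79), and in the middle class 9.08% (8.51 to 9.67) and 4.39% (2.74 to 6.64). The difference between weak and strong Myf5-only peaks was 3.15 percentage points (2.02 to 4.20). It was 4.78 points with the width classes weighted alike, for which no interval was computed.

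Myf5 coverage and control coverage hardly told acetylated from other weak sites. Myf5 coverage had a median of 40 (39 to 40; quartiles 33 and 49) with H4Ac and 39 (38 to 39; quartiles 33 and 49) without, a difference whose interval of 0 to 2 reads reaches 0. Control coverage, the authors' maximum coverage of a control library at the same peak, had a median of 10 (10 to 10) in both sets, with quartiles of 9 and 12 with H4Ac and 8 and 12 without. Which control library this was is not given in the sources used. A control coverage of 15 or more was found at 7.20% (6.52 to 7.93) of sites with H4Ac and 6.10% (5.88 to 6.33) without. The mock list of the MyoD antibody held a peak at 2 acetylated sites and at 4 of the others. The mock list of the Myf5 antibody held none at either, 0 of 5303 and 0 of 42839. None of the 93787 Myf5 peaks overlapped it, while 53 of 45015 MyoD peaks did, so this count says nothing particular about the weak sites.

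Most acetylated Myf5 peaks of any kind also had H4Ac in the cells that carried neither factor, and the weak Myf5-only sites were among them. In cells with GFP, 4015 of 5303, or 75.7% (74.5 to 76.9), had an H4Ac peak, against 70.4% (69.6 to 71.1) of all acetylated Myf5 peaks, 64.0% (62.9 to 65.1) of acetylated strong shared sites and 78.1% (76.5 to 79.7) of acetylated weak shared sites. H4Ac was called in all 3 populations at 2876 sites, or 54.2% (52.9 to 55.6), close to the 52.7% (51.9 to 53.5) of all acetylated Myf5 peaks. It was called with GFP only at 483, with MyoD only at 392 and with Myf5 only at 537, the population in which these sites were bound. A further 359 had H4Ac with both factors and not with GFP, or 6.77% against 9.08% of all acetylated Myf5 peaks. With GFP and MyoD there were 383, or 7.22% against 7.52%, and with GFP and Myf5 273, or 5.15% against 3.52%. H4Ac with Myf5 only thus made up 10.1% (9.33 to 11.0) of the acetylated weak Myf5-only sites, against 7.18% (6.78 to 7.60) of all acetylated Myf5 peaks. It made up 13.2% (8.91 to 18.7) of the strong Myf5-only, 6.52% (5.58 to 7.57) of the weak shared and 5.14% (4.65 to 5.67) of the strong shared ones. H4Ac with GFP only was likewise more frequent at the weak Myf5-only sites, 9.11% (8.35 to 9.91) against 6.64% (6.25 to 7.04) of all acetylated Myf5 peaks. H4Ac with MyoD only made up 7.39% (6.70 to 8.13) of the weak Myf5-only sites and 13.4% (12.9 to 13.9) of all acetylated Myf5 peaks. That low share was not particular to them, since weak shared sites stood at 8.14% (7.09 to 9.28), strong Myf5-only sites at 11.3% (7.28 to 16.4) and strong shared sites at 19.5% (18.6 to 20.4).

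Part of the sites with H4Ac in a single list had H4Ac of another list close by. An H4Ac peak of another list lay within 500 bp of 124 of the 483 sites with GFP only, 69 of the 392 with MyoD only and 166 of the 537 with Myf5 only. With such neighbours counted, H4Ac in all 3 populations reached 62.5% (61.2 to 63.8) and H4Ac in cells with GFP 80.7% (79.6 to 81.7). By the same rule acetylated weak shared sites reached 65.0% and 81.7%, strong shared 53.8% and 66.7%, and strong Myf5-only 50% and 70.1%. At the weak Myf5-only sites the 3 single-list groups came to 6.77% (6.11 to 7.48) for GFP, 6.09% (5.46 to 6.77) for MyoD and 6.996% (6.32 to 7.72) for Myf5.

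The same comparison was made over merged H4Ac regions, where each region counts once. Weak Myf5-only sites touched 6821 of 45627 merged regions, and 6553 of these held no other factor peak. Of the 6553, 50.6% (49.4 to 51.8) were called in all 3 populations, against 44.2% (43.4 to 45.1) of 14569 regions with other factor peaks only, 35.6% (35.02 to 36.2) of 24237 regions without a factor peak and 40.8% (40.3 to 41.2) of all regions. Regions called with Myf5 only were 9.61% (8.91 to 10.4) of those at weak Myf5-only sites, 7.31% (6.89 to 7.74) at other factor peaks and 18.8% (18.3 to 19.3) at no factor peak. Regions called with MyoD only were 9.03% (8.35 to 9.75), 20.2% (19.5 to 20.8) and 11.8% (11.4 to 12.2). H4Ac in cells with GFP, alone or with others, was found at 74.5% (73.5 to 75.6), 62.5% (61.7 to 63.3) and 61.7% (61.1 to 62.3). The 268 regions that held both a weak Myf5-only site and another factor peak were broad, with a median of 890.5 bp, and 80.6% (75.3 to 85.2) were called in all 3 populations. Median region widths were 400 bp at weak Myf5-only sites, 376 bp at other factor peaks and 318 bp at none.

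**Figure D3:**
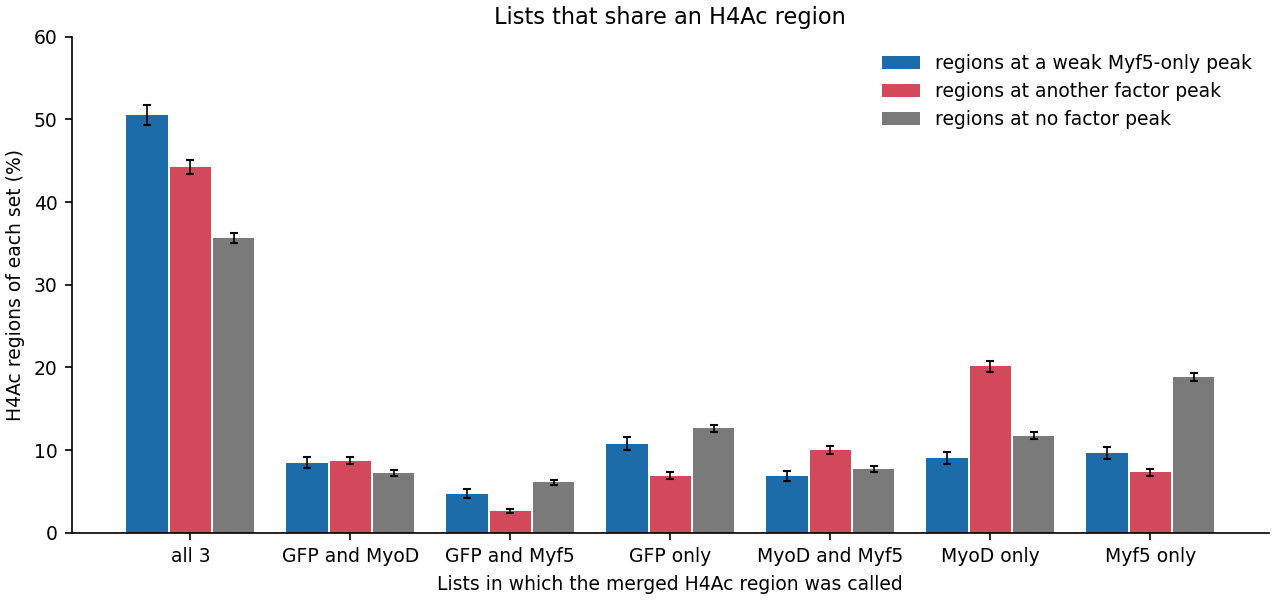
Share of merged H4Ac regions (%) by the lists in which they were called, for 6553 regions at a weak Myf5-only peak and no other factor peak (blue), 14569 regions at other factor peaks only (red) and 24237 regions at no factor peak (grey); error bars are exact 95% binomial intervals. The blue bar is the tallest for regions called in all 3 lists (50.6%), the red bar for MyoD only (20.2%) and the grey bar for Myf5 only (18.8%).

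H4Ac at weak Myf5-only sites had nearly the same strength as at MyoD-bound sites and was stronger than where no factor peak lay. Strength is the authors' maximum H4Ac coverage divided by the cutoff of the same GC bin, compared within a list. In cells with GFP the median was 1.54 (1.5 to 1.54) for 5036 H4Ac peaks at weak Myf5-only sites alone, 1.54 (1.52 to 1.57) for 9442 at MyoD or shared sites and 1.31 (1.31 to 1.33) for 16315 at no factor peak. In cells with MyoD the medians were 1.5 (1.47 to 1.52), 1.46 (1.45 to 1.48) and 1.29 (1.29 to 1.29), and in cells with Myf5 1.5 (1.48 to 1.54), 1.48 (1.48 to 1.5) and 1.30 (1.30 to 1.30). An H4Ac coverage of at least 2 times the cutoff was reached by 30.1% (28.8 to 31.4) of the peaks at weak Myf5-only sites and 18.5% (18.0 to 19.1) of those at no factor peak in cells with Myf5. The GFP cells carried neither factor, and there the shares were 31.7% (30.4 to 33.0) and 19.8% (19.2 to 20.4).

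The H4Ac peaks at weak Myf5-only sites were also wider than those at no factor peak. In cells with Myf5 the median H4Ac width was 423 bp at weak Myf5-only sites and 339 bp at no factor peak. With the list split into 3 equal width classes, the median strengths were 1.17 (1.15 to 1.19) against 1.13 (1.11 to 1.13) in the narrowest, 1.38 (1.37 to 1.41) against 1.34 (1.33 to 1.37) in the middle and 2.07 (2.00 to 2.13) against 1.89 (1.85 to 1.92) in the widest. The whole-list difference of 0.20 (0.18 to 0.24) was thus 0.0302 (0.00421 to 0.0646) in the middle class and remained near its full size in the widest. The part of width in the difference was not tested.

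**Figure D4:**
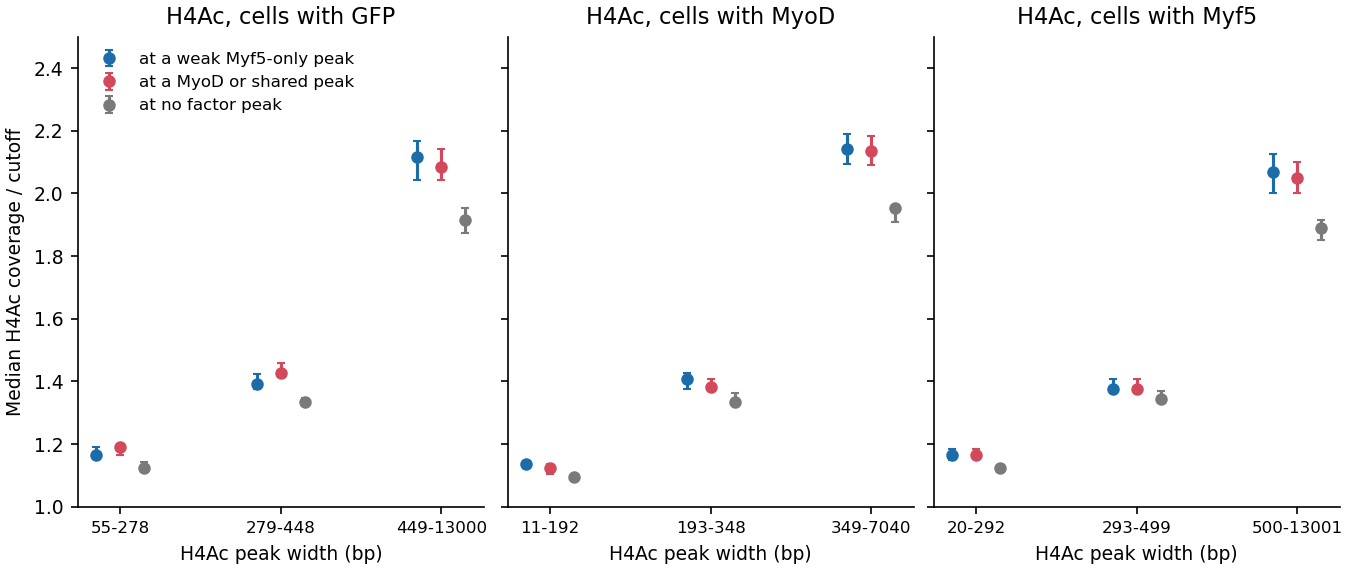
Median H4Ac coverage divided by the cutoff (no unit) in 3 equal classes of H4Ac peak width (bp), for each H4Ac list and for peaks at a weak Myf5-only peak alone (blue), at a MyoD or shared peak (red) and at no factor peak (grey); bars are 95% order-statistic intervals and the axis starts at 1, the calling cutoff. Blue and red points lie close together, and grey points lie below them, most in the widest class (in cells with Myf5 2.07 for blue and 1.89 for grey).

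H4Ac strength differed between the patterns of lists, which follows in part from the calling. A pattern records in which lists H4Ac passed the cutoff, and strength is coverage over that same cutoff. For each site and list, the strongest overlapping H4Ac peak was taken, unlike the medians over single H4Ac peaks above. Sites with H4Ac in all 3 populations had a median strength of 2.00 (1.92 to 2.04) with GFP, 2.00 (1.95 to 2.00) with MyoD and 1.92 (1.86 to 1.96) with Myf5. Sites in a single list sat near the cutoff, at 1.14 (1.12 to 1.15) for GFP only, 1.10 (1.09 to 1.14) for MyoD only and 1.17 (1.15 to 1.19) for Myf5 only. The last group also held more low-GC sites: 21.0% (17.7 to 24.7) had at most 40% GC, against 6.43% (5.56 to 7.39) of the sites in all 3 and 9.11% (6.70 to 12.0) of those with GFP only. The Myf5 coverage of the bound site did not follow: medians ran from 38 to 41 over the 7 patterns. Across the acetylated sites the Spearman correlation of Myf5 coverage with H4Ac strength was -0.0545 in cells with GFP (4015 sites), -0.0436 with MyoD (4010) and -0.0225 with Myf5 (4045), given as a description of peaks from the same libraries.

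H4Ac peaks at weak Myf5-only sites were also more often shared with the GFP cells. In the MyoD list, 78.8% (77.7 to 79.9) of those at weak Myf5-only sites overlapped a GFP peak, against 64.7% (63.9 to 65.5) at MyoD or shared sites and 69.7% (69.0 to 70.4) at no factor peak. In the Myf5 list the shares were 77.3% (76.1 to 78.5), 73.6% (72.7 to 74.5) and 62.2% (61.5 to 62.9). Within the narrowest width class of the Myf5 list they were 58.6% (55.8 to 61.4) at weak Myf5-only sites and 40.2% (39.0 to 41.4) at no factor peak, and within the widest 91.6% (90.2 to 92.8) and 89.3% (88.4 to 90.2), with 90.6% (89.7 to 91.5) at MyoD or shared sites. In the narrowest class of the MyoD list, 57.9% (55.3 to 60.4) of those at weak Myf5-only sites, 39.1% (37.5 to 40.7) at MyoD or shared sites and 49.4% (48.2 to 50.6) at no factor peak overlapped a GFP peak. In its widest class the shares were 94.9% (93.9 to 95.8), 86.3% (85.3 to 87.2) and 93.5% (92.7 to 94.1), so there the intervals at weak Myf5-only sites and at no factor peak overlapped.

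Each acetylated site was usually only part covered. The median overlap with merged H4Ac regions was 370 bp, or 48.1% of the Myf5 peak (quartiles 28.4% and 73.1%). H4Ac covered 298 sites in full and under 100 bp of 333. A single merged region was touched by 3837 sites, 2 by 1321 and 3 or more by 145. Few sites shared a region: 205 did so with another acetylated weak Myf5-only site, and the region of 270 also held another factor peak. The midpoint of the Myf5 peak lay inside a merged region at 54.3% (52.9 to 55.6) of the acetylated weak Myf5-only sites. It did so at 54.9% (52.9 to 56.9) of weak shared and 48.6% (47.5 to 49.7) of strong shared acetylated sites. For strong Myf5-only acetylated sites the share was 44.6% (37.7 to 51.7).

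Around the Myf5 peaks, coverage by H4Ac was highest near the midpoint, which follows in part from the choice of peaks that touch H4Ac. In cells with Myf5, 51.7% of the 4045 sites with H4Ac in that list were covered at the midpoint, 36.4% at 500 bp to one side and 35.4% to the other, and 14.3% and 12.9% at 1000 bp. In cells with GFP, which have no Myf5, the values were 51.4%, 33.7%, 31.2%, 11.9% and 11.1%. In cells with MyoD the weak Myf5-only sites stood at 47.4% at the midpoint against 44.5% and 43.4% at 200 bp to the sides. A rise was also present in cells with GFP, at 51.4% against 49.4% and 49.7%. It was absent in cells with Myf5, where the sides stood at 51.2% and 51.9%. Strong shared sites were slightly lower at the midpoint than at 200 bp in each list: 42.5% against 43.3% and 44.6% in cells with MyoD, 48.6% against 50.1% and 50.8% with Myf5, and 49.0% against 49.1% and 49.3% with GFP. Weak shared sites stood at 45.9% against 45.8% and 46.9% in cells with MyoD, and 51.1% against 52.4% and 52.3% with Myf5. With GFP they stood at 52.0% against 52.9% and 51.9%. These percentages have no replicate check, and no intervals were computed for them.

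**Figure D5:**
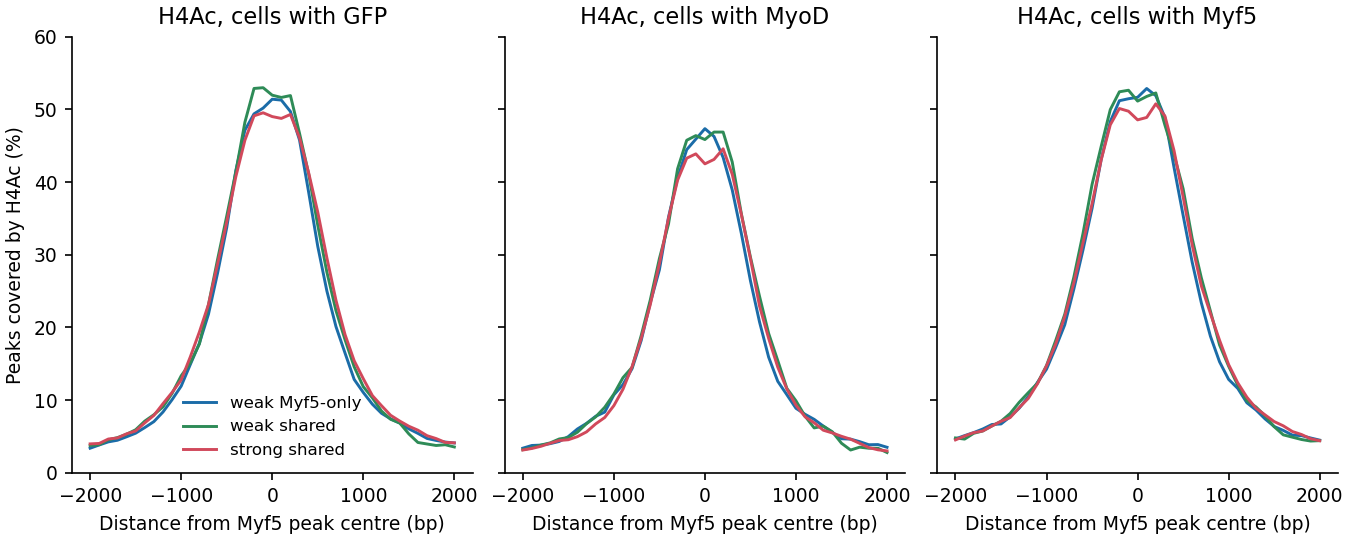
Share of acetylated Myf5 peaks (%) covered by an H4Ac peak at each distance (bp, steps of 100) from the Myf5 peak midpoint, for the 3 H4Ac lists and for weak Myf5-only (blue), weak shared (green) and strong shared (red) peaks that touch H4Ac in that list. All curves peak near the midpoint. There the blue curve is above the red one in each list. With GFP they stand at 51.4% and 49.0%, with MyoD at 47.4% and 42.5%, and with Myf5 at 51.7% and 48.6%. The green curve is above the red one there too, at 52.0%, 45.9% and 51.1% in the same order.

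Acetylated sites lay in denser surroundings. The nearest other Myf5 peak was a median of 2674 bp away (2510 to 2822), against 4045 bp (3973 to 4111) for weak Myf5-only peaks without H4Ac, and lay within 1000 bp at 32.1% (30.8 to 33.4) and 20.8% (20.4 to 21.2). The nearest MyoD peak was 7775 bp (7335 to 8242) and 10100 bp (9903 to 10296) away, and lay within 1000 bp at 15.2% (14.2 to 16.2) and 9.28% (9.01 to 9.56). The sites without H4Ac were mostly far from any: their nearest H4Ac region was a median of 18065 bp away (17739 to 18373), and within 500 bp at 3.46% (3.29 to 3.64).

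Among the sites with H4Ac in all 3 lists, 3 are named for the strongest H4Ac. The first, on chromosome 2 at 52600453 to 52601991, had a Myf5 coverage of 43 over a control coverage of 15, and H4Ac coverages of 592 with GFP, 464 with MyoD and 371 with Myf5. The next, on chromosome 3 at 132346685 to 132347352, had a Myf5 coverage of 33 and H4Ac coverages of 475, 406 and 365. The third, on chromosome 11 at 17111480 to 17112189, had a Myf5 coverage of 53 and H4Ac coverages of 398, 378 and 319. All 3 lie at 40 to 45% GC, and their H4Ac stood between 13.3 and 24.7 times the cutoff.

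Among the 5 sites named for the highest Myf5 coverage, all at 79, H4Ac ranged widely. That coverage is the highest the limit of weak peaks allows, and tied sites were taken by lower control coverage. The site on chromosome 8 at 55248765 to 55249404 had H4Ac coverages of 88 with GFP, 95 with MyoD and 122 with Myf5. That on chromosome 13 at 37394272 to 37394972 had 60, 62 and 64, and that on chromosome 2 at 93116983 to 93118575 had 52, 45 and 40. The site on chromosome 8 at 86670907 to 86672147 had H4Ac in cells with MyoD only, at a coverage of 26. The site on chromosome 7 at 147179167 to 147179850 had H4Ac in cells with Myf5 only, at 31, with a MyoD-cell H4Ac peak 415 bp away. The first of the weak Myf5-only peaks of the same coverage without H4Ac lay on chromosome 11 at 33629398 to 33630286, with a control coverage of 6.

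At most of the strongest single-list sites, H4Ac of the other lists lay just outside the Myf5 peak. The first with Myf5 only, on chromosome 6 at 39191270 to 39191990, had a Myf5-cell H4Ac coverage of 218, and the H4Ac peaks of the other lists began 526 bp (MyoD) and 535 bp (GFP) away. The second, on chromosome 10 at 77082616 to 77083964, had a coverage of 165 and the others at 95 and 99 bp. The first with GFP only, on chromosome 1 at 130141559 to 130141894, had a coverage of 217 and the others at 248 and 249 bp. The first with MyoD only, on chromosome 8 at 108425005 to 108425503, had a coverage of 104 and the others at 69 and 83 bp. The third with MyoD only was a separate region: on chromosome 4 at 56431705 to 56432432 H4Ac reached 47, and the nearest H4Ac of the other lists was 45153 bp (GFP) and 44627 bp (Myf5) away. The 3 strongest with both factors and not GFP were close to GFP-cell H4Ac as well. The gap was 129 bp for the site at 58690982 to 58691297 of chromosome 4, 5 bp for that at 35088986 to 35090009 of chromosome 2 and 197 bp for that at 29068335 to 29068987 of chromosome 17.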

How the data were processed

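Peak lists from chromatin immunoprecipitation were used for 7 of 10 samples; the other 3 are input DNA, not analysed here. The submitters' processing notes list BWA 0.7.5, CASAVA 1.8.2 and the genome builds hg19 and mm9. Positions were read as mm9: chromosome 1 holds a peak up to 197068167, beyond its last gene in GRCm38 (195291439). How peaks were called and replicates joined is not given in the sources used here. The coverage signal and its cutoff for each of 5 GC bins are the authors' whole numbers, per the file headers, with no scaling to depth named. The deposited p-value of each peak was not used, nor the control p-values, of which some exceed 1. A placeholder stood for 1 control coverage of the GFP list, which was left out.

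The members and lists were chosen with earlier results of these data known. Overlap means at least 1 bp. Shares have exact Clopper-Pearson intervals and medians order-statistic intervals at 95%. Intervals of differences combine the squared arms of both, except that paired shares use an exact interval of the discordant peaks. Intervals cover counting error only. The shares with H4Ac and their differences between the lists and between weak and strong peaks, the differences in GC, width, coverage and control, the share in all 3 lists and the H4Ac strength difference were repeated with other overlap rules, limits of weak peaks, H4Ac thresholds and list lengths, and without the X chromosome, mock regions or the lowest GC bin; trends by class, merged regions, sharing with GFP, profiles and neighbours were not. Sites were named by a fixed rule: those of highest Myf5 coverage, of strongest H4Ac in each pattern of lists (the lowest of their ratios to the cutoff) and of highest control coverage, and the strongest peaks without H4Ac, outside chromosome 18. The comparison of weak with strong Myf5-only peaks, that between the H4Ac lists, the weighting by width, the middle width class and the 500 bp rule were added after seeing the data. Overlap scoring was tested on simulated lists of 20000 peaks and recovered planted shares with an error of 0 points. Scripts ran in Python 3.11.15 with scipy 1.17.1, matplotlib 3.10.9, pandas 2.3.3 and numpy 2.4.6.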

Additional observations from a re-analysis of the deposited data

How the results depend on the processing

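No pairing over samples was possible because each group has 1 list, and the paired differences between H4Ac lists were taken over peaks. The differences in median control coverage and median Myf5 coverage between sites with and without H4Ac stayed within their intervals under all 9 alternatives. Only the differences of the Myf5 and MyoD lists from the GFP list, whose intervals held 0, changed sign under any of them. The share of weak Myf5-only peaks with H4Ac (11.0%) was 10.3% with at least 100 bp shared, 8.19% in the 200 bp centre window, 10.4% with coverage under 40, 10.4% without a MyoD peak within 1000 bp, 6.44% with H4Ac peaks of at least 1.5 times the cutoff, 10.6% with H4Ac lists of equal length and 11.6% without the lowest GC bin. The median width difference (172 bp) was 183 bp with 100 bp shared, 148 bp in the window, 151 bp under 40 and 190 bp at 1.5 times the cutoff. The lowest-GC difference (-4.83 points) was -7.34 at 1.5 times the cutoff and -1.55 with width classes weighted alike. The share in all 3 lists (54.2%) was 47.9% in the window, 52.3% at 1.5 times the cutoff, 55.9% without the lowest GC bin and 62.5% with H4Ac within 500 bp counted. The H4Ac strength difference (0.20) was 0.249 in the window, 0.148 at 1.5 times the cutoff, 0.174 without the lowest GC bin and 0.0302 in the middle width class. The weak minus strong difference (3.15 points) was 4.78 with width classes weighted alike. The Myf5 minus GFP list difference (0.0623 points) was -0.154 at 1.5 times the cutoff and -0.175 without the lowest GC bin, and the MyoD minus GFP list difference (-0.0104) was -0.172 in the window and -0.798 with lists of equal length. The cause of these shifts was not tested. Depth is unknown, so a site without an H4Ac peak may hold H4Ac below the cutoff.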

Other observations

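Acetylated weak Myf5-only sites were spread over all 20 chromosomes of the lists. The share of weak Myf5-only peaks with H4Ac ran from 8.43% (6.72 to 10.4) of 925 on the X chromosome and 8.80% (7.74 to 9.96) of 2591 on chromosome 4 to 12.9% (11.6 to 14.2) of 2822 on chromosome 10. The acetylated sites of highest control coverage were on chromosome 13 at 12891111 to 12891872, with a control coverage of 31 beside a Myf5 coverage of 69, and on chromosome 1 at 74442590 to 74445975, with 30 beside 72. The latter site is 3386 bp wide and carried H4Ac coverages of 31 with GFP and 29 with Myf5, just above the cutoff. The former carried H4Ac coverages of 31 with MyoD and 34 with Myf5, and a GFP-cell H4Ac peak 330 bp away.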
